A study of Mus musculus with 33 samples.

Results

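Neurotrophin signalling in the mouse nucleus accumbens was examined through 6 genes: the ligand genes Bdnf and Ntf3, the Trk receptor genes Ntrk2 and Ntrk3, the p75 receptor gene Ngfr and the sorting receptor gene Sort1. They were taken by symbol from a table of read counts for 24061 genes, and all 6 were found. The nucleus accumbens is a ventral striatal region that is central to reward. Bulk polyadenylated RNA was sequenced in 33 libraries, all from C57BL/6J mice.

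Germ-free mice (GF, no microbiome) were bred in isolators at the institution, were matched in age to the others and received sterilised chow and water. Conventionally raised mice, 7 to 9 weeks old and from a commercial supplier, drank either antibiotics (Abx, a depleted microbiome) or water (H2O, a normal microbiome). The Abx drink held neomycin at 2 mg/mL, bacitracin and vancomycin at 0.5 mg/mL each, and the antifungal pimaricin at 1.2 µg/mL. It was given from 2 weeks before the injections until the end, and whole cages were assigned to a drink. Within each microbiome state, mice received morphine at 20 mg/kg per day for 7 days or saline. The libraries comprised 5 GF Morphine, 6 GF Saline, 5 Abx Morphine, 6 Abx Saline, 5 H2O Morphine and 6 H2O Saline samples. GF and conventional mice also differed in breeding, housing and source, which cannot be told apart from the microbiome.

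Neurotrophins are secreted as precursors that are cleaved by proteases such as furin. Mature BDNF acts mainly through TrkB, the product of Ntrk2, and mature NT-3 through TrkC, the product of Ntrk3, which signal through the MAP kinase, PI3 kinase and phospholipase C pathways. The precursors bind p75 (Ngfr) together with sortilin (Sort1), which also sorts BDNF within the cell. In the striatum, most BDNF protein is known to be made by cortical and other afferent neurons and carried there along axons, while striatal neurons and astrocytes express Ntrk2. Ngfr is known from basal forebrain cholinergic neurons.

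The level unit is CPM, counts scaled to a common number of reads counted to genes, with TMM factors, which evens out differences in RNA composition. Log2 fold changes are given with the standard error of the fit. Differences were tested with edgeR's quasi-likelihood F test in 1 fit of 6 group means, and adjusted p-values are Benjamini-Hochberg values over all 14607 genes tested. A gene was called at an adjusted p under 0.05. No label ties a library to a cage, batch or date, and p-values measure the spread between these libraries. In bulk tissue, fewer cells of a type and less RNA per cell cannot be told apart.

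GF Morphine libraries held 5.86 to 7.3 M reads (M, megareads) counted to genes and GF Saline libraries 4.87 to 15.3 M, against 9.36 to 15.3 M in the 22 Abx and H2O libraries. GF Saline replicate 1 stood apart: it held 15.3 M reads, against 4.87 to 8.12 M in the remaining 10 GF libraries. The marker genes of medium spiny neurons, the main striatal cell type, were high in all groups, with summed levels from 1930 to 5620 CPM over 8 genes. The 7 markers of cortical-type glutamatergic neurons, among them Slc17a7, Neurod2, Neurod6, Tbr1, Fezf2 and Emx1, varied far more. Their summed level was 8.76 to 12.3 CPM in GF Morphine libraries, 8.72 to 359 in GF Saline, 153 to 977 in Abx Morphine, 87.4 to 1480 in Abx Saline, 8.61 to 1180 in H2O Morphine and 13 to 673 in H2O Saline libraries. Slc17a7, a vesicular glutamate transporter gene, ran from 2.41 to 1250 CPM. Neurod2 was at 0 counts in 5 libraries, Neurod6 in 4 and Emx1 in 3. Slc17a7, Tbr1 and Fezf2 had reads in every library. The mean log2 CPM of these 7 genes was 3.69 in GF Saline replicate 1, against -0.69 to 1.54 in the other 5 GF Saline libraries. Whether these markers came from adjoining cortex in the dissection was not tested.

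The Bdnf gene lies on chromosome 2 (109674700 to 109727007, plus strand, GRCm38, GENCODE M21) and has 7 start sites in RefSeq, all pooled in 1 count per library. It is a classic gene of neuronal activity, controlled in part through binding of CREB to a cAMP response element near one of its start sites. The 250 bases before one of these starts (chr2:109692186-109692435, plus strand, GRCm38.p6, RefSeq) are shown because they carry such letters. The capitals mark the match, whose first base lies 38 bases before the start.

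Bdnf, upstream of this start: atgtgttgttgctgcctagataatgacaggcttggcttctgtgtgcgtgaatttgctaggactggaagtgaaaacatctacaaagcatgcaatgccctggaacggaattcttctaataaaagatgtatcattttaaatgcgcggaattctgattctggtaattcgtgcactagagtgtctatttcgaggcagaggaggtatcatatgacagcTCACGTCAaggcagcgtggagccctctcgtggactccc

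The letters TGACGTCA, and TGACGTGA with its reverse complement TCACGTCA, were searched on both strands of windows of 300 bases. Of the 32851 windows of all genes, 725 (2.21%) held at least one of these. Among the members, 1 of the 7 Bdnf windows held a match, while the 2 of Ntf3, the 1 of Ntrk2 and the 1 of Ngfr held none. A match is a description of letters, and the deposited counts do not tell the start sites apart.

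The other genes lie on chromosome 6 (Ntf3, 126101412 to 126166910, minus strand), chromosome 13 (Ntrk2, 58806569 to 59133970, plus), chromosome 7 (Ntrk3, 78175959 to 78738012, minus), chromosome 11 (Ngfr, 95568818 to 95587735, minus) and chromosome 3 (Sort1, 108284082 to 108361511, plus), all protein-coding. Exons of Bdnf overlap the antisense gene Gm45346 over 896 bp, and those of Sort1 overlap the antisense gene Gm12523 over 338 bp. Since the strand setting of the counting is not given in the sources used here, reads of these partners cannot be told apart. Truncated and full-length Trk receptors are likewise summed within Ntrk2 and Ntrk3.

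The 6 genes spanned a wide range of levels. Per kilobase of exon, the mean over 33 libraries was 64.7 CPM for Sort1, 41 for Ntrk2, 3.17 for Ntrk3, 1.94 for Ngfr, 0.589 for Bdnf and 0.137 for Ntf3. The receptors of the mature ligands and sortilin thus stood far above the ligand genes. The order of the top pair depends on the length used: per kilobase of the longest transcript, Ntrk2 had 90.4 CPM and Sort1 71.6. The genes also differed in steadiness. The coefficient of variation over all libraries was 102% for Bdnf, 88.3% for Ntf3 and 71.6% for Ngfr, against 10.2% for Ntrk2, 14.6% for Ntrk3 and 15.6% for Sort1.

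**Figure D1:**
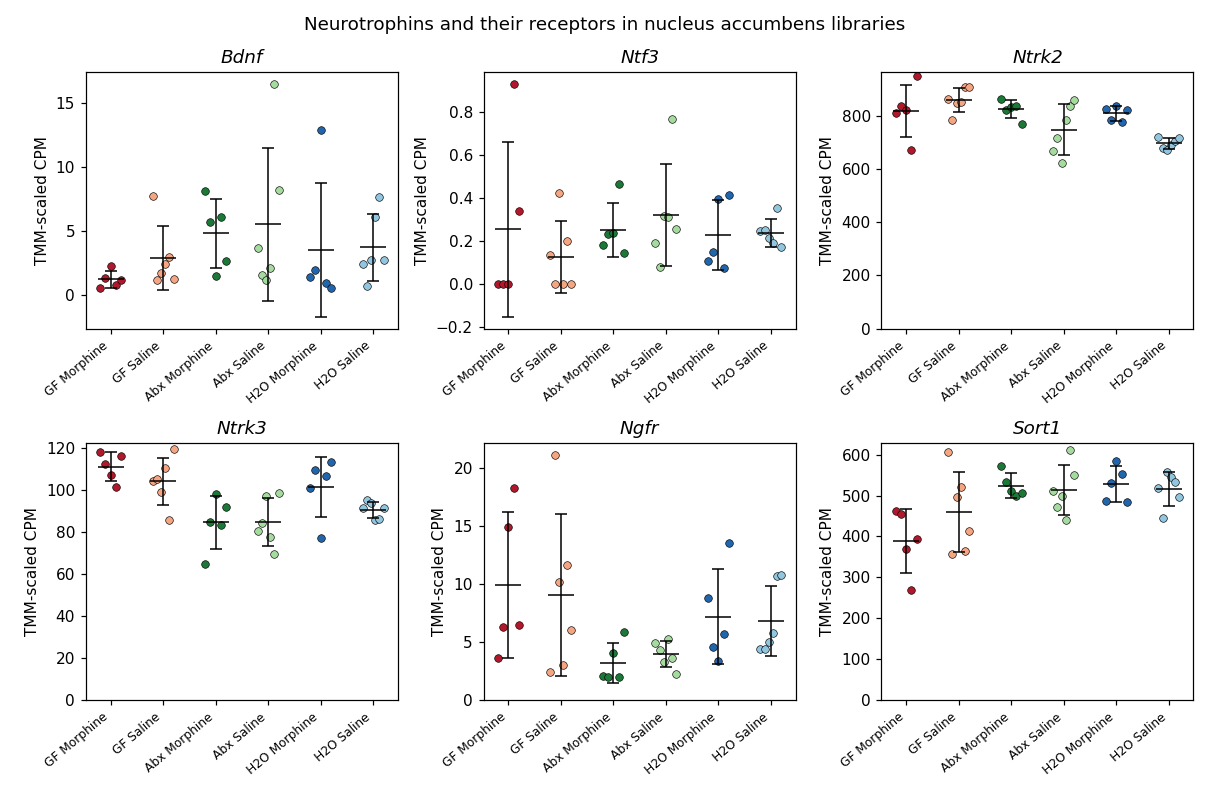
TMM-scaled CPM (vertical axes, linear) of the 6 genes in each of 33 libraries (points) by group, with the group mean (horizontal line) ± SD (bars). Ntrk2 lay between 782 and 907 CPM in all 6 GF Saline libraries, above all 6 H2O Saline libraries, while single Bdnf libraries reached 16.5 CPM in Abx Saline and 12.9 CPM in H2O Morphine.

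Of the ligands, Bdnf was called in no comparison. Its level was 0.556, 0.775, 1.19, 1.32 and 2.27 CPM in the 5 GF Morphine libraries. In GF Saline libraries it ran from 1.2 to 7.77 CPM (median 2.05). These were the groups with the lowest means, 1.22 ± 0.664 CPM (SD, n = 5) in GF Morphine and 2.89 ± 2.49 CPM (SD, n = 6) in GF Saline. Bdnf had 1.5, 2.66, 5.73, 6.12 and 8.13 CPM in Abx Morphine libraries and 1.16 to 16.5 CPM (median 2.86) in Abx Saline libraries. In H2O Morphine libraries it had 0.579, 0.904, 1.37, 1.94 and 12.9 CPM, and in H2O Saline libraries 0.668 to 7.67 CPM (median 2.75). All 6 groups overlapped, and a few high libraries set the upper end in each conventional group.

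The order of the Bdnf means was Abx Saline (5.53 CPM), Abx Morphine (4.83), H2O Saline (3.73), H2O Morphine (3.54), GF Saline (2.89) and GF Morphine (1.22), and the mean ± SD ranges of neighbours overlapped. The test of any difference among the 6 groups gave an adjusted p of 0.318 for Bdnf. The widest gap among the 9 pairs tested was between GF Morphine and Abx Morphine, where 4 of 5 GF libraries lay below all Abx libraries (log2 fold change -1.95 ± 0.88, adjusted p = 0.0936, 95% interval -3.76 to -0.15). A fit of only those 2 groups (adjusted p = 0.0104) and DESeq2 (0.0433) called that difference. Morphine against saline gave -0.01 ± 0.69 in H2O mice (95% interval -1.42 to 1.4), -0.19 ± 0.65 in Abx mice and -1.36 ± 0.91 in GF mice. Without GF Saline replicate 1, which had the most Bdnf of the GF libraries, the last value was -0.6. GF Saline against H2O Saline was -0.22 with that library and -0.99 without it, and GF Saline against Abx Saline -0.78 with it and -1.54 without it, none of them called.

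Across libraries, Bdnf followed the level of the 7 cortical-type markers. The libraries with the most Bdnf, Abx Saline replicate 5 with 16.5 CPM and H2O Morphine replicate 4 with 12.9 CPM, had the highest marker levels, 5.5 and 5.24 in mean log2 CPM. H2O Morphine replicate 6, with 0.579 CPM of Bdnf, had a marker level of -0.59. Over 33 libraries Pearson's r was 0.868 and Spearman's rho 0.859 on the log2 scale (permutation tests, adjusted p = 1.30e-04 for both over 78 relations between the 6 genes and 13 marker lists). Both raw p-values were 1e-05, the smallest that 100000 permutations can give. After leaving out the 2 libraries farthest from the median marker level, r was 0.835. Within the 22 Abx and H2O libraries r was 0.935, and within the 11 GF libraries 0.829. The GF value leans on GF Saline replicate 1, with a marker level of 3.69 and 7.774 CPM of Bdnf. No other GF library exceeded 1.54 in marker level or 3.003 CPM in Bdnf, and r without replicate 1 was not computed. In GF Morphine, replicate 3 had the most Bdnf (2.274 CPM) and the lowest marker level (-0.4). On deviations from group means, pooled over all 33 libraries, r was 0.905. The relation was not tested in each group by itself. Bdnf ran nearly as strongly against the cholinergic list (r = -0.796, rho = -0.716, permutation, adjusted p = 1.30e-04 and 1.95e-04). That r was -0.704 without the 2 farthest libraries, -0.845 within the 22 Abx and H2O libraries and -0.603 within the 11 GF libraries. On deviations it was -0.803 (2.60e-04). The oligodendrocyte precursor list had r = -0.432 (0.0387), and -0.384 on deviations (0.0946).

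When the levels of the cortical, septal and hypothalamic marker lists were added to the fit, the Bdnf differences changed sign and were called. They were then 1.05 ± 0.26 for GF Saline against H2O Saline (adjusted p = 0.00374), 1.31 ± 0.3 for GF Saline against Abx Saline (0.00435), 1.44 ± 0.41 for GF Morphine against H2O Morphine (0.043) and 1.77 ± 0.42 for GF Morphine against Abx Morphine (0.00514). The cortical slope for Bdnf was 0.876 ± 0.06 log2 units per unit of marker level, and 8.16% of all tested genes had a called cortical slope. The marker level spanned -0.4 to -0.06 in GF Morphine libraries and 2.1 to 4.74 in Abx Morphine libraries. In GF Saline, 5 of 6 libraries had -0.69 to 1.54, below all Abx Saline libraries (1.64 to 5.5), and GF Saline replicate 1 alone overlapped them. Both GF against Abx values therefore rest on a line drawn across marker levels that the groups share in at most 1 GF library. The part of the marker difference in the Bdnf levels cannot be told apart from the group difference there. Overlap with the H2O groups was also thin. H2O Saline replicate 4 had 0.126, and the other H2O Saline libraries 2.52 to 4. No H2O Morphine library lay within the GF Morphine range: replicates 6 and 2 had -0.587 and 0.12, and the others 1.82 to 5.24. The GF against H2O values thus rest on few libraries with like marker levels.

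**Figure D2:**
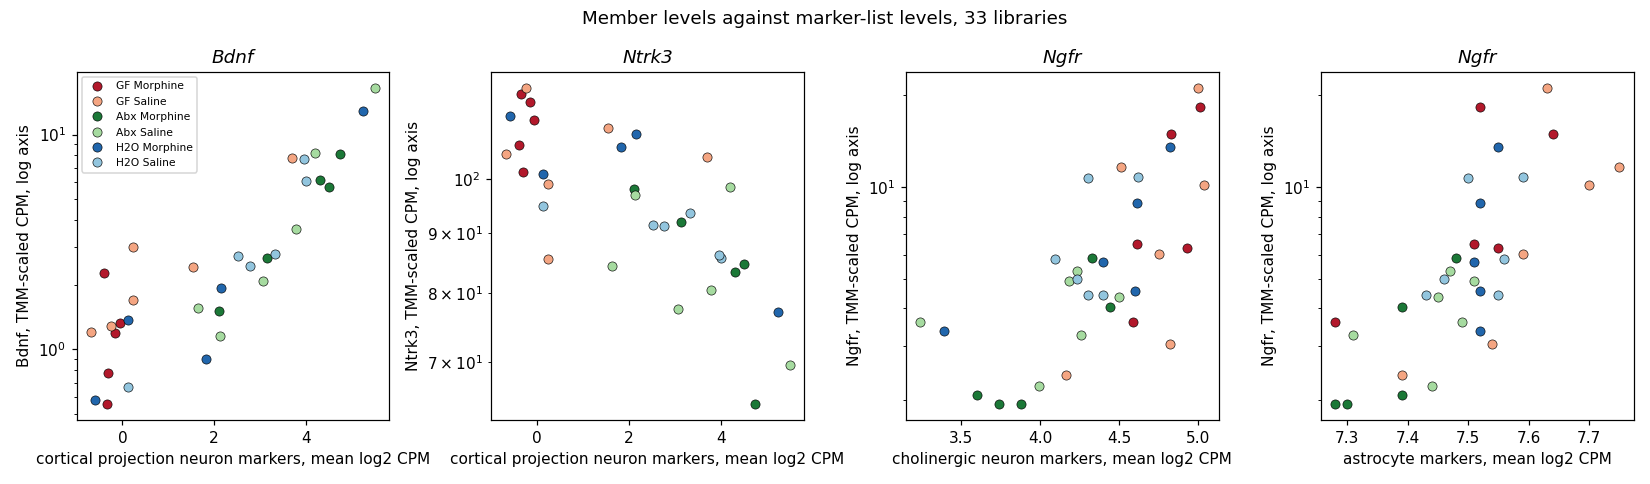
CPM of Bdnf, Ntrk3 and Ngfr (vertical log axes) against the mean log2 CPM of a marker list (horizontal axes), 1 point per library, coloured by group. Bdnf climbs along the cortical marker level (r = 0.868), Ntrk3 declines along it (r = -0.751), and Ngfr climbs with cholinergic (r = 0.689) and astrocyte markers (r = 0.732).

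Ntf3, which encodes neurotrophin 3, was near the detection limit, with 80 reads over 33 libraries and 0 to 7 reads in any one. It did not pass the filter on low counts and was not tested in the main fit. In 6 libraries it had 0 counts (GF Morphine replicates 1, 2 and 3 and GF Saline replicates 2, 4 and 6), which allows up to 0.381 to 0.45 CPM in them, counting error only. Ntf3 had 0, 0, 0, 0.341 and 0.93 CPM in GF Morphine libraries, 0 to 0.424 CPM (median 0.067) in GF Saline libraries, and 0.0753 to 0.767 CPM in the Abx and H2O libraries. The zero libraries were all GF and all among the shallower ones, and a lower level there was not detectable at this depth. With no filter on low counts, Ntf3 was called in no comparison (adjusted p 0.257 to 1).

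Ntrk2, the TrkB gene, rose in GF Saline mice, with the smallest adjusted p of any member in the pairwise comparisons. Its level in GF Saline libraries was 782 to 907 CPM (median 858), against 672 to 719 CPM (median 697) in H2O Saline libraries. The groups did not overlap, and all 6 GF Saline libraries lay above all H2O Saline libraries. The means were 860 ± 45.9 CPM in GF Saline and 696 ± 20.1 CPM in H2O Saline (SD, n = 6 each), a log2 fold change of 0.305 ± 0.07 (adjusted p = 0.00116). In that comparison 32.9% of all tested genes were called. Of the 5 members tested there, Ntrk2 alone was called, so the share of members was near the background. The call held without each of the 12 libraries in turn (without GF Saline replicate 1, 0.30, adjusted p = 0.0018). It was lost after a correction for GC content and length, which left 0.10 ± 0.06 (adjusted p = 0.239); log2 fold changes in this comparison were correlated with GC content over genes (Spearman's rho -0.493, across genes, which are not independent replicates).

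Against Abx Saline, with 621 to 859 CPM (median 752), GF Saline was also higher in Ntrk2, by 0.20 ± 0.07 (adjusted p = 0.0263, 3 of 6 libraries above all Abx Saline libraries). In that comparison 27.4% of all genes were called, and 2 of the 5 members (Ntrk2 and Ntrk3). This smaller difference was lost with upper-quartile factors (adjusted p = 0.0549), with the GC and length correction (0.31), in a fit of the 2 groups alone (0.108) and without any one of Abx Saline replicates 1, 2 and 3 or GF Saline replicate 6 (0.0742, 0.0548, 0.0831 and 0.0626). Abx Saline against H2O Saline gave 0.10 ± 0.07 (adjusted p = 0.582, 95% interval -0.04 to 0.24), where 0.116% of genes were called and no member was.

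Under morphine, the Ntrk2 means of the 3 microbiome states lay between 809 and 825 CPM. The values were 671, 812, 821, 838 and 949 CPM in GF Morphine, 768, 823, 833, 838 and 863 CPM in Abx Morphine, and 775, 785, 823, 827 and 835 CPM in H2O Morphine libraries. GF Morphine against H2O Morphine was 0.02 ± 0.07 (95% interval -0.14 to 0.17), and Abx Morphine against H2O Morphine 0.03 ± 0.07. Within H2O mice all 5 Morphine libraries lay above all 6 Saline libraries, with means of 809 ± 27.1 CPM in H2O Morphine and 696 ± 20.1 CPM in H2O Saline (SD). That difference was 0.22 ± 0.07 with an adjusted p of 0.147 and was not called. The share of all genes that separated these groups in the same way was not counted. Log2 fold changes in this comparison were correlated with gene length (Spearman's rho 0.389) and GC content (-0.298) over genes, which are not independent replicates. No gene of the table was called there: 0.00% by edgeR, with 2222 genes at an unadjusted p under 0.05, 332 called by DESeq2 and 1325 by limma voom. For Ntrk2 a fit of the 2 groups alone gave an adjusted p of 0.00713, and limma voom 0.0201.

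In Abx mice morphine against saline gave 0.14 ± 0.07 for Ntrk2 (adjusted p = 0.255; limma voom 0.0207), and in GF mice -0.07 ± 0.07 (adjusted p = 0.856). In these comparisons 5.42% and 0.00685% of genes were called, and no member was. The test of whether the morphine response differed between GF and H2O mice gave -0.29 ± 0.1 for Ntrk2 (adjusted p = 0.164, 95% interval -0.5 to -0.08). That interaction had no called gene (0.00% by edgeR, 2325 at an unadjusted p under 0.05, 234 called by DESeq2 and 51 by limma voom). Its log2 fold changes were likewise correlated over genes with length (Spearman's rho -0.442) and GC content (0.336). The matching interaction for Abx mice had 0.110% of genes called and no member (Ntrk2 -0.07 ± 0.1, adjusted p = 0.914). These comparisons share the saline and morphine libraries of H2O mice.

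The order of the Ntrk2 means was GF Saline (860 CPM), Abx Morphine (825), GF Morphine (818), H2O Morphine (809), Abx Saline (748) and H2O Saline (696). Neighbours again overlapped in mean ± SD. The test of any difference among the 6 groups was passed by 48.7% of all genes and by 4 of the 5 members tested: Ntrk2 (adjusted p = 0.00546), Ntrk3 (0.00346), Ngfr (0.0306) and Sort1 (0.0218). Markers of mural cells, which surround small vessels, moved the other way: 2 of 3 (Pdgfrb, Rgs5, Vtn) were called lower in GF Saline libraries than in those of H2O Saline, with summed levels of 83.4 to 117 CPM in GF Saline and 151 to 180 CPM in H2O Saline, and none at 0. So were 3 of 4 endothelial markers (79.8 to 143 CPM in GF Saline and 145 to 168 CPM in H2O Saline) and 2 of 8 medium spiny neuron markers (1930 to 5300 CPM in GF Saline and 4070 to 5620 CPM in H2O Saline). Other lists had markers called higher in that comparison and none lower. These were 2 of 8 astrocyte, 1 of 5 cholinergic, 1 of 7 oligodendrocyte, 1 of 5 fibroblast, 2 of 4 tested hypothalamic and 2 of 3 pituitary markers. Over 33 libraries, Ntrk2 and the mural list had r = -0.632 and rho = -0.706 (permutation, adjusted p = 7.80e-04 and 2.34e-04; -0.603 without the 2 farthest libraries). With the endothelial list r was -0.562 and rho -0.683 (adjusted p = 0.00357 and 2.34e-04; -0.563 without the 2 farthest), and with the medium spiny list -0.474 and -0.462 (0.0217 and 0.03; -0.419). On deviations from group means r was -0.221, -0.192 and -0.34 for the mural, endothelial and medium spiny lists (permutation, adjusted p = 0.377, 0.434 and 0.143). Spearman's rho there was -0.409, -0.411 and -0.5 (0.0768, 0.0768 and 0.0248), so the medium spiny rho passed. Within the 22 Abx and H2O libraries r was -0.801, -0.774 and -0.704, and within the 11 GF libraries 0.173, 0.146 and -0.0418. The microglia list had r = -0.376 over 33 libraries (0.0826) and -0.48 on deviations (0.024). With the astrocyte list Ntrk2 had r = 0.167 (permutation, adjusted p = 0.483), and 0.142 on deviations (0.601). The part of these lists in the Ntrk2 difference was not tested.

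**Figure D3:**
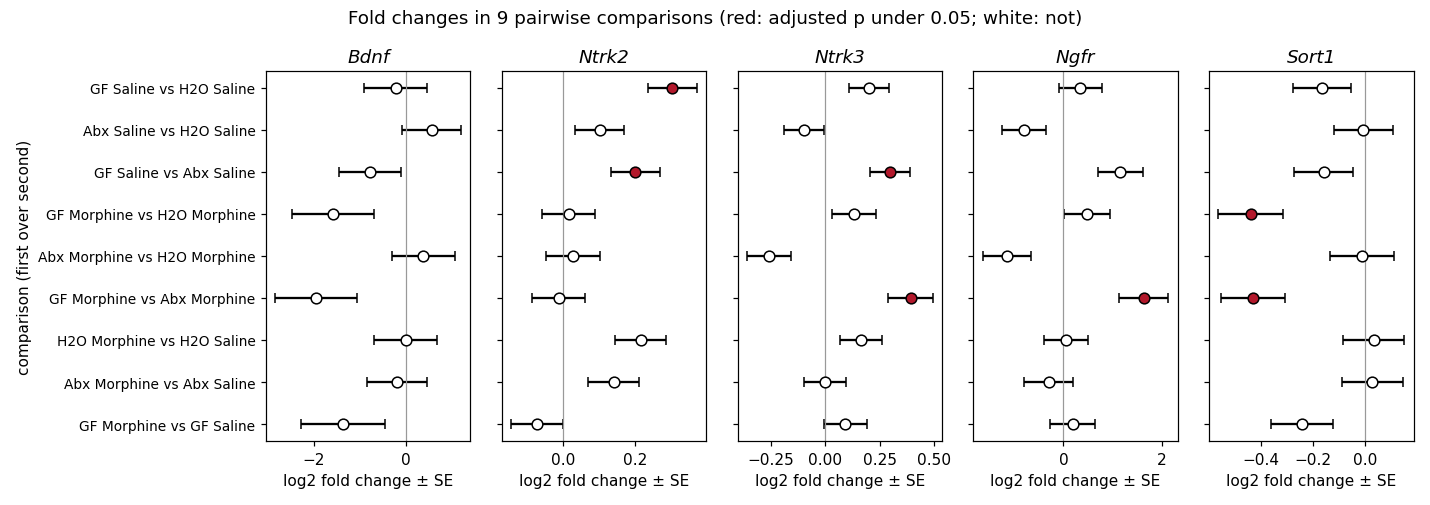
Log2 fold change (horizontal axes, points) ± SE (bars) of the 5 tested genes in 9 pairwise comparisons (rows, first group over second); red points had an adjusted p under 0.05. The red points are Ntrk2 (GF Saline over H2O Saline and over Abx Saline), Ntrk3 (GF over Abx under either drug), Ngfr (GF Morphine over Abx Morphine) and, below 0, Sort1 (GF Morphine over H2O Morphine and over Abx Morphine), with none for Bdnf or for morphine over saline.

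Ntrk3, the TrkC gene, was higher in GF than in Abx mice under both drugs. In GF Morphine libraries it had 101, 107, 112, 116 and 118 CPM, against 64.5, 83.4, 84.7, 91.9 and 98 CPM in Abx Morphine libraries. All 5 GF Morphine libraries lay above all 5 Abx Morphine libraries. The log2 fold change was 0.39 ± 0.1 (adjusted p = 0.00483), with means of 111 ± 6.81 CPM in GF Morphine and 84.5 ± 12.6 CPM in Abx Morphine (SD, n = 5 each). In that comparison 28.0% of all genes were called, and 3 of the 5 members tested (Ntrk3, Ngfr and Sort1).

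In GF Saline libraries Ntrk3 had 85.5 to 119 CPM (median 105), against 69.6 to 98.5 CPM (median 82.5) in Abx Saline libraries. Of the 6 GF Saline libraries 5 lay above all Abx Saline libraries, and replicate 5 lay among them. This difference was 0.30 ± 0.09 (adjusted p = 0.0172; 0.29, adjusted p = 0.0225 without GF Saline replicate 1). It was lost without Abx Saline replicate 5 (0.25, adjusted p = 0.0528) or GF Saline replicate 6 (0.25, 0.0617), and after the GC and length correction (0.03, 0.848). The H2O groups lay between, with 77.2, 101, 106, 109 and 113 CPM in H2O Morphine and 85.7 to 94.8 CPM (median 91.3) in H2O Saline.

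GF Saline against H2O Saline in Ntrk3 was 0.20 ± 0.09 (adjusted p = 0.0921), with 5 of 6 GF libraries above all H2O libraries. It was called in a fit of the 2 groups alone (0.20, adjusted p = 0.0459) and without GF Saline replicate 5 (0.25, 0.0385). Abx Morphine against H2O Morphine was -0.26 ± 0.1 (adjusted p = 0.0928), a difference that limma voom called (-0.31, adjusted p = 0.00532) and that was called without H2O Morphine replicate 4 (-0.35, 0.0176). That comparison had 10.3% of genes called and no member. The order of means was GF Morphine (111 CPM), GF Saline (104), H2O Morphine (101), H2O Saline (90.5), Abx Saline (84.6) and Abx Morphine (84.5), and neighbours did not differ beyond their spread. Morphine against saline was 0.16 ± 0.1 in H2O mice, -0.0011 ± 0.1 in Abx mice and 0.09 ± 0.1 in GF mice.

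Ntrk3 ran against the cortical-type markers, with r = -0.751 and rho = -0.771 over 33 libraries (permutation, adjusted p = 1.30e-04 for both; -0.694 without the 2 farthest libraries). On deviations from group means r was -0.509 (permutation, adjusted p = 0.017), while rho was -0.386 and did not pass (0.0931). Without the 2 farthest libraries the r on deviations was -0.299. With group means kept, r was -0.736 within the 22 Abx and H2O libraries and -0.128 within the 11 GF libraries. All 7 cortical-type markers were called lower in GF Morphine than in Abx Morphine, and 2 of 7 in GF Saline than in Abx Saline. With the 3 marker levels in the fit, Ntrk3 was 0.10 ± 0.11 in GF Morphine against Abx Morphine (adjusted p = 0.59) and 0.13 ± 0.1 in GF Saline against Abx Saline (0.391), and neither was called. These groups share cortical-type marker levels in at most 1 GF library, so marker and group differences cannot be told apart there. Ntrk3 also moved with cholinergic markers (r = 0.768, rho = 0.733, adjusted p = 1.30e-04 and 1.95e-04; 0.704 without the 2 farthest libraries). That r was 0.781 within the 22 Abx and H2O libraries and 0.0442 within the 11 GF libraries. On deviations from group means r was 0.607 (adjusted p = 0.00468) and rho 0.411 (0.0768).

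Ngfr, the p75 receptor gene, was low and uneven, and it was higher in GF Morphine than in Abx Morphine mice. It had 3.61, 6.31, 6.48, 14.9 and 18.3 CPM in GF Morphine libraries, against 1.94, 1.94, 2.08, 4.03 and 5.83 CPM in Abx Morphine libraries. Of the 5 GF Morphine libraries 4 lay above all Abx Morphine libraries, and replicates 3 and 5 stood highest. The log2 fold change was 1.63 ± 0.5 (adjusted p = 0.0147, 95% interval 0.61 to 2.66), from means of 9.92 ± 6.32 CPM in GF Morphine and 3.16 ± 1.74 CPM in Abx Morphine (SD, n = 5 each). The call was lost without GF Morphine replicate 3 (1.43, adjusted p = 0.0512) or replicate 5 (1.3, 0.0717).

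In GF Saline libraries Ngfr ran from 2.41 to 21.2 CPM (median 8.11), against 2.22 to 5.28 CPM (median 3.98) in Abx Saline libraries. The difference was 1.15 ± 0.46 and was not called (adjusted p = 0.0604). It was called without GF Saline replicate 1, the lowest GF Saline library (1.38, adjusted p = 0.0169), without GF Saline replicate 4 (1.33, 0.0342), by DESeq2 (1.2, 0.0385) and with the GC and length correction (1.3, 0.0497). H2O mice lay between, with 3.35, 4.55, 5.65, 8.84 and 13.6 CPM in H2O Morphine and 4.41 to 10.7 CPM (median 5.4) in H2O Saline libraries. Neither GF group was called against its H2O group (0.48 ± 0.47 under morphine, adjusted p = 0.557; 0.34 ± 0.43 under saline, 0.568), and the intervals, -0.48 to 1.44 and -0.55 to 1.23, are wide.

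The order of the Ngfr means was GF Morphine (9.92 CPM), GF Saline (9.08), H2O Morphine (7.19), H2O Saline (6.84), Abx Saline (3.94) and Abx Morphine (3.16), with neighbours within their spread. Morphine against saline gave 0.19 ± 0.46 in GF mice, -0.3 ± 0.5 in Abx mice and 0.05 ± 0.44 in H2O mice. Abx Morphine against H2O Morphine was -1.15 ± 0.49 (adjusted p = 0.132), which limma voom called (-1.25, 0.0287).

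Ngfr moved with markers of several other cell types. With 8 astrocyte markers it had r = 0.732 and rho = 0.752, and with 5 cholinergic markers (Chat, Slc5a7, Slc18a3, Lhx8, Slc10a4) r = 0.689 and rho = 0.719 (permutation, adjusted p at most 3.34e-04; r = 0.696 and 0.746 without the 2 farthest libraries). On deviations from group means these were 0.671 and 0.56 (adjusted p = 2.60e-04 and 0.00468). Relations with oligodendrocyte (0.599), microglia (0.628), fibroblast (0.583) and, inversely, cortical-type markers (-0.651) also passed. So did those with the hypothalamic (r = 0.5, permutation, adjusted p = 0.0116) and oligodendrocyte precursor lists (0.494, 0.0153). On deviations these were 0.463 (0.0277) and 0.404 (0.0741). Of the cholinergic markers 4 of 5 were called higher in GF Morphine than in Abx Morphine, with summed levels of 128 to 173 CPM in GF Morphine and 71.4 to 118 CPM in Abx Morphine, and Chat had reads in every library. Of the astrocyte markers 3 of 8 were called higher and 1 lower, with summed levels of 2910 to 3840 CPM in GF Morphine and 3450 to 3840 CPM in Abx Morphine. The mean log2 CPM of that list, which is the measure correlated, leaned the other way, at 7.5 in GF Morphine and 7.37 in Abx Morphine. All 4 microglia markers were called higher there, with summed levels of 277 to 340 CPM in GF Morphine and 215 to 249 CPM in Abx Morphine, which do not overlap. So were 4 of 5 fibroblast and meningeal markers (32.6 to 179 CPM in GF Morphine and 23.4 to 26.6 CPM in Abx Morphine), and 1 of 7 oligodendrocyte markers. With the cortical, septal and hypothalamic levels in the fit, the Ngfr difference was 0.74 ± 0.55 (adjusted p = 0.383). Since GF Morphine and Abx Morphine libraries share no cortical-type marker level, marker and group differences cannot be told apart there. The part of the cholinergic, astrocyte, microglia, fibroblast, oligodendrocyte and oligodendrocyte precursor levels in the Ngfr difference was not tested.

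Sort1, the sortilin gene, fell in GF Morphine mice. It had 268, 370, 394, 456 and 461 CPM in GF Morphine libraries. Abx Morphine libraries had 498, 507, 511, 534 and 573 CPM, and H2O Morphine libraries 485, 486, 531, 553 and 585 CPM. Every GF Morphine library lay below every other morphine library. The log2 fold change was -0.43 ± 0.12 against Abx Morphine (adjusted p = 0.0102) and -0.44 ± 0.12 against H2O Morphine (adjusted p = 0.0319), with means of 389 ± 78.7 CPM in GF Morphine, 525 ± 30.2 in Abx Morphine and 528 ± 43.6 in H2O Morphine (SD, n = 5 each). Both comparisons share the GF Morphine libraries, and in the second 5.86% of all genes were called, 388 of them lower. Sort1 was the member among them, 1 of the 5 tested.

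The difference from H2O Morphine was lost in a fit of the 2 groups alone (adjusted p = 0.0865) and in 5 of 10 fits without 1 library, namely without H2O Morphine replicate 3, 4 or 5 (0.0834, 0.0745 and 0.0834) or GF Morphine replicate 3 or 5 (0.0856 and 0.109). The difference from Abx Morphine was lost with the 3 marker levels in the fit (-0.16 ± 0.12, adjusted p = 0.364). GF Morphine and Abx Morphine libraries share no cortical-type marker level, so marker and group differences cannot be told apart there. The difference from H2O Morphine stayed called with these levels in the fit. GF Morphine replicate 5, the lowest for Sort1, also had the highest share of tallied reads given to no gene, 35.4%, against 22.1% to 27% in the other GF Morphine libraries.

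Under saline Sort1 ran from 358 to 606 CPM (median 455) in GF libraries, 440 to 611 CPM (median 505) in Abx libraries and 444 to 557 CPM (median 526) in H2O libraries, and the groups overlapped. GF Saline against H2O Saline was -0.16 ± 0.11 (adjusted p = 0.27) and moved to -0.27 (0.0504) without GF Saline replicate 1, the highest GF library. Against Abx Saline it was -0.16 ± 0.11 (0.306), and -0.26 (0.0646) without that library. GF Morphine against GF Saline was -0.24 ± 0.12 (adjusted p = 0.747, 95% interval -0.49 to 0.0028), and -0.14 without replicate 1. Sort1 moved with the cortical-type markers (r = 0.735, rho = 0.811, adjusted p = 1.30e-04 for both; 0.699 without the 2 farthest libraries; 0.622 on deviations, adjusted p = 0.00253). It ran against the hypothalamic list (r = -0.508, permutation, adjusted p = 0.0248), with -0.587 on deviations (0.00468). Cholinergic (r = -0.643, on deviations -0.497, 0.0218) and oligodendrocyte markers (-0.468, on deviations -0.53, 0.0168) also passed both ways, though the oligodendrocyte rho did not (0.112). Fibroblast (-0.583), pituitary (-0.473) and medium spiny markers (0.455) passed in r over all libraries and not in r on deviations. The order of means was H2O Morphine (528 CPM), Abx Morphine (525), H2O Saline (516), Abx Saline (514), GF Saline (460) and GF Morphine (389), with neighbours within their spread.

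Among themselves, the members split along these lines. Over 33 libraries Bdnf and Sort1 had a Spearman rho of 0.664, Bdnf and Ntrk3 -0.681, and Ngfr and Sort1 -0.63, given as a description. Ntrk2 had rho between -0.192 and 0.217 with the others. On deviations from group means the first 3 were 0.525, -0.52 and -0.607, and Bdnf and Ntrk2 had 0.438. All share the depth and tissue of the same libraries.

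The genes whose levels followed each member most closely over the 33 libraries were ranked by Spearman's rho over 12533 genes, where the median rho lay between -0.0164 and 0.00635. For Bdnf they were Nptx1 (0.911), a neuronal pentraxin gene, Scube1, Pdlim3, Sstr3, a somatostatin receptor gene, and Slc30a3 (0.892), a vesicular zinc transporter gene of glutamatergic terminals. For Ntrk2 they were Eif4ebp2 (0.863), Ncoa7, Map1b, Dennd5b and Gnaq (0.842), and for Ntrk3 Pcdh10 (0.847), Brwd1, Ankrd6, Snx27 and Smarca1 (0.835). For Ngfr they were Ntsr2 (0.864), Slc6a9, a glycine transporter gene of astrocytes, Ndrg2, Lrig1 and Smyd1 (0.842). Ntsr2 and Ndrg2 are likewise known from astrocytes. For Sort1 they were Pcnxl2 (0.913), Ntm, Cntn4, Prkce and Epha7 (0.903). For Ntf3 the highest rho was 0.619 (Cabyr, then Hars, Rgs7 and Psen2), which at 0 to 7 reads is no finding.

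The remaining ligands and receptors of the pathway were examined as a list of 7 genes. Ntf5 was not tested, with means of 0.0316 CPM or less. The calls were all in sortilin-related receptors. Sorcs1 was higher in GF Saline than in H2O Saline (86.9 and 70.9 CPM, log2 fold change 0.29 ± 0.1, adjusted p = 0.0257) and than in Abx Saline (64.8 CPM, 0.425 ± 0.1, 0.00284). Sorcs2, which encodes a receptor for neurotrophin precursors, fell in GF Saline relative to H2O Saline (-0.29 ± 0.11, 0.0454). Under morphine Sorcs2 averaged 87.7 CPM in GF mice, against 121 CPM in Abx mice (-0.46 ± 0.12, 0.00688) and 123 CPM in H2O mice (-0.48 ± 0.12, 0.0205). Sorcs3 fell in both GF Morphine (73.3 CPM, -0.32 ± 0.09, 0.03) and Abx Morphine (73.9 CPM, -0.31 ± 0.09, 0.0194), against 91.3 CPM in H2O Morphine. The list had 2 of 6 tested genes called in GF Saline against H2O Saline (1 up, 1 down) with a median of -0.2, against 32.9% called and a median of 0.01 over all genes. It had 1 of 6 called in GF Saline against Abx Saline (27.4% of all genes) and in GF Morphine against Abx Morphine (28.0%). Against H2O Morphine, 2 of 6 were called in GF Morphine (5.86% of all genes) and 1 of 6 in Abx Morphine (10.3%).

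Precursor processing and signalling downstream of the receptors was a list of 33 genes, all tested. In GF Saline against H2O Saline 7 were higher and 5 lower (median -0.01), and all-gene shares were 18.0% higher and 14.9% lower, so the list stood near the background. The largest rises were in Pcsk1, a prohormone convertase gene (23.9 and 13.9 CPM, 0.80 ± 0.2, adjusted p = 0.00295), Sos1, a Ras exchange factor gene (0.50 ± 0.09, 7.84e-05), and Traf6, an adaptor of p75 (0.41 ± 0.08, 2.62e-04). The largest falls were in Map2k2, the MEK2 gene (-0.29 ± 0.06, 6.22e-04), Shc2, an adaptor gene (-0.26 ± 0.07, 0.00323), and Mapk3, the ERK1 gene (-0.24 ± 0.05, 8.47e-04). Against Abx Saline, GF Saline had 8 higher and 6 lower, with 14.6% of all genes higher and 12.8% lower. These were led by Pcsk1 (0.77 ± 0.2, 0.00498), Sos1 (0.37 ± 0.09, 0.0021) and Gab1 (0.34 ± 0.09, 0.0074) upward, and by Shc2 (-0.3 ± 0.07, 0.00152), Rapgef1 (-0.29 ± 0.08, 0.00609) and Map2k2 (-0.27 ± 0.06, 0.00178) downward. These 2 comparisons share the GF Saline libraries.

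In GF Morphine against Abx Morphine the signalling list had 3 higher and 5 lower genes, with 14.7% of all genes higher and 13.3% lower, so it stood near the background. The adaptor genes Gab1 (0.56 ± 0.1, adjusted p = 1.90e-04) and Sh2b1 (0.19 ± 0.07, 0.0291) and the gene Arhgdia (0.16 ± 0.06, 0.0433) were higher. The 3 with the largest falls were Lingo1, a co-receptor gene of the p75 complex (95.6 and 147 CPM, -0.62 ± 0.22, 0.0357), Rapgef1, a Rap exchange factor gene (-0.51 ± 0.09, 5.90e-05), and Plat, the tissue plasminogen activator gene (-0.36 ± 0.07, 4.77e-04). Abx Morphine against H2O Morphine, where 10.3% of all genes were called, had 4 of 33 called, with Plat (0.33 ± 0.07, 0.00263), Rapgef1 (0.31 ± 0.08, 0.0138) and Pik3r1 (0.23 ± 0.08, 0.0487) higher and Gab1 (-0.41 ± 0.1, 0.00793) lower. Morphine against saline in Abx mice, where 5.42% of all genes were called, had 3 of 33 called, with Frs2 (0.24 ± 0.07, 0.0295) higher, and Map2k2 (-0.24 ± 0.06, 0.0203) and Arhgdia (-0.24 ± 0.06, 0.0134) lower. In GF Morphine against H2O Morphine, where 5.86% of all genes were called, none of the 33 was.

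The 9 genes of a list known to be induced by BDNF in neurons (Vgf, Nptx2, Npy, Dusp6, Spry2, Spry4, Arc, Egr1, Homer1) were all tested. In GF Saline against H2O Saline only Spry4, a feedback inhibitor gene of receptor tyrosine kinase signalling, was called (16.8 and 11.3 CPM, 0.56 ± 0.13, adjusted p = 0.002), and the list's median was 0.1, against 0.01 over all genes. That was 1 of 9 genes, where 32.9% of all genes were called. In GF Morphine against Abx Morphine Npy, the neuropeptide Y gene, was higher (79.4 and 65.3 CPM, 0.28 ± 0.1, 0.0366) and Spry2 lower (44.1 and 67.4 CPM, -0.61 ± 0.17, 0.00661), with a median of -0.07. Those were 2 of 9 genes, where 28.0% of all genes were called. No gene of this list was called in the remaining 7 pairwise comparisons, among them GF Saline against Abx Saline, where 27.4% of all genes were called. The list did not exceed the all-gene share in any of these comparisons.

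**Figure D4:**
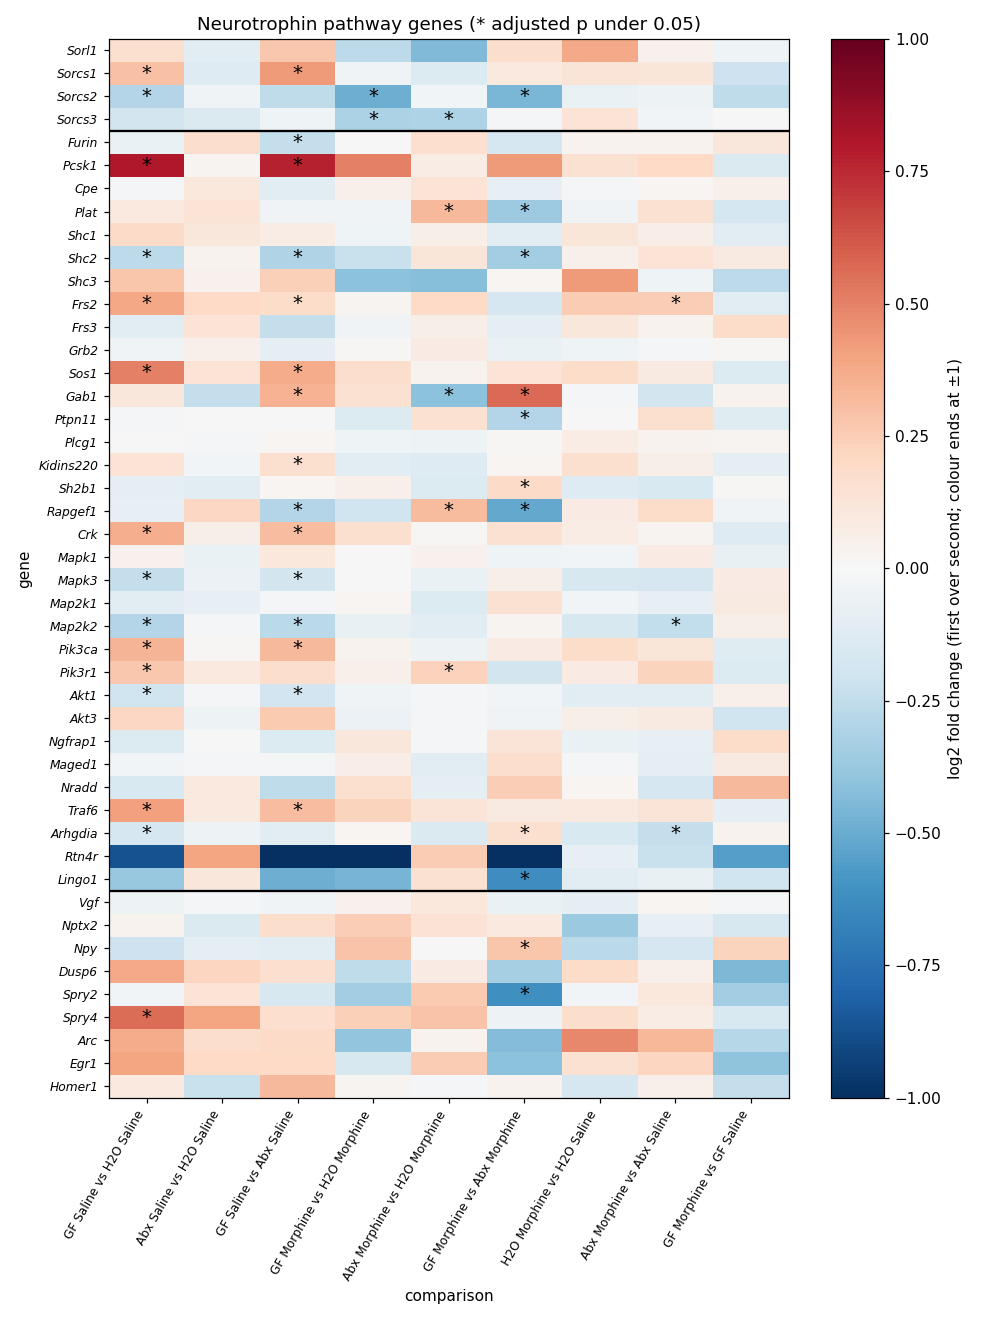
Log2 fold change (colour; the scale ends at ±1) of tested pathway genes (rows) in 9 pairwise comparisons (columns, first group over second), with an asterisk at an adjusted p under 0.05. Black lines separate sortilin-family receptors, processing and signalling genes, and BDNF-induced genes. Asterisks gather in the columns of GF Saline against H2O Saline, GF Saline against Abx Saline and GF Morphine against Abx Morphine, and there are none in Abx Saline against H2O Saline, H2O Morphine against H2O Saline or GF Morphine against GF Saline.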

How the data were processed

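Deposited read counts per gene symbol, whole numbers made by the authors, were used for every test. The submitters' processing notes name STAR 2.4.0, FastQC and edgeR. The genome build, gene models, counting program and strandedness are not stated there. Per the labels' protocols, RNA was extracted with TRIzol and made into cDNA with a SMARTer kit. The authors' normalised table was not used. The 5 tally entries, 19.3% to 35.4% of tallied reads per library, were left out, and 27 gene names that a spreadsheet had turned into dates were kept as unnamed entries.

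Counts were analysed in R 4.3.3 with edgeR 4.0.16 (filterByExpr at a minimum count of 10, TMM, glmQLFit and glmQLFTest, two-sided, Benjamini-Hochberg), in 1 fit whose residual degrees of freedom were 27 and whose common biological variation coefficient was 0.128. The 12 comparisons were 9 between pairs of groups, 2 interactions and 1 test over the 6 groups. Log2 CPM used a prior count of 2, and a marker level is the mean log2 CPM of its list. Correlations used 100000 permutations, two-sided, of libraries, or of their deviations from group means, with Benjamini-Hochberg adjustment over 78 relations. Named genes were the 6 members, the 5 genes most like each by Spearman's rho among tested genes with a mean of at least 2 CPM (gene models left out), and the list genes past the threshold, or the 3 higher and 3 lower with the largest change where more than 6 passed.

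Alternatives were DESeq2 1.42.0, limma 3.58.1 (voom with quality weights), upper-quartile or RLE factors, no low-count filter, the compared groups alone, the replicate number as a block, marker levels as covariates, a GC and length correction (mgcv 1.9.3, GENCODE M21) and leaving out each library. Pairs of libraries of 1 group correlated at 0.96 to 0.993, and none was a repeat (chi-squared divided by its degrees of freedom was 3.07 to 36.7). Some list genes are not reported here. The code was tested on simulated data. The members and lists were chosen with earlier results of these data known. Limits from counts of 0 cover counting error only. The intervals of fold changes were built on the standard error of the fit, which includes the spread between libraries.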

Additional observations from a re-analysis of the deposited data

Results flagged for a closer look

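In 3 of the 36 sets formed by 6 genes and 6 groups, the highest library lay far from the others of its group. Chance flags about 1 in 20 such sets if levels follow a normal distribution. That rate was not checked for levels as uneven as those of Bdnf and Ntf3. Bdnf had 7.774 CPM in GF Saline replicate 1, and the next GF Saline library had 3.003 CPM. That library also had a cortical-type marker level of 3.69 in mean log2 CPM, against -0.69 to 1.54 in the other 5. Bdnf had 12.89 CPM in H2O Morphine replicate 4, and the next H2O Morphine library had 1.939 CPM. Its marker level was 5.24, against -0.59 to 2.15 in the other H2O Morphine libraries. The part of these markers in the Bdnf values was not tested in single libraries. Ntf3 had 0.7668 CPM in Abx Saline replicate 5, and the next Abx Saline library had 0.3151 CPM, both from at most 7 reads. Abx Saline replicate 5 was also the library with the most Bdnf (16.5 CPM) and the highest cortical-type marker level (5.5).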

How the results depend on the processing

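Of the members' fold changes under the alternatives, 1169 kept their direction and their side of the threshold or stayed uncalled (105 of these changed sign while uncalled in both fits), 23 were no longer called, 14 became called and 4 changed sign. Those 4 were Bdnf with the cortical, septal and hypothalamic marker levels as covariates, at 1.05 (GF Saline against H2O Saline), 1.31 (GF Saline against Abx Saline), 1.44 (GF Morphine against H2O Morphine) and 1.77 (GF Morphine against Abx Morphine). Of 78 relations with marker lists, 26 passed and 15 also did so on deviations from group means; there the pituitary list changed sign with Ntrk3 (-0.0954) and Sort1 (0.0157).

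Counts of called genes moved most where few genes were called. In GF Saline against H2O Saline (4813) the GC and length correction gave 2841. In Abx Saline against H2O Saline (17) the covariates gave 5, the GC and length correction 32, the 2 groups alone 50, DESeq2 100 and limma voom 180. In GF Saline against Abx Saline (3996) the covariates gave 2491, the GC and length correction 2226 and the 2 groups alone 2277. In GF Morphine against H2O Morphine (856) the covariates gave 518 and the 2 groups alone 329. In Abx Morphine against H2O Morphine (1508) the 2 groups alone gave 2392 and limma voom 3550. In GF Morphine against Abx Morphine (4093) the covariates gave 2041. In H2O Morphine against H2O Saline (0) the covariates gave 1, the 2 groups alone 988, DESeq2 332 and limma voom 1325. In Abx Morphine against Abx Saline (791) the covariates gave 1300 and limma voom 2433. In GF Morphine against GF Saline (1) the 2 groups alone and limma voom gave 0. The Abx interaction (16) had 28 with the GC and length correction, 59 in a fit of its own groups, 67 by DESeq2 and 171 by limma voom, and the GF interaction (0) had 21 with the covariates, 234 by DESeq2 and 51 by limma voom. The causes were not tested. Upper-quartile factors split GF Saline against H2O Saline into 2121 higher and 2848 lower (2636 and 2177 with TMM), and GF Saline against Abx Saline into 1722 and 2474 (2127 and 1869).

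No pairing of mice by replicate number was seen on average: over 66 same-numbered pairs the mean correlation of deviations was -6.95e-04 (-0.473 to 0.462). Pairs with different numbers were not compared. With the replicate block, 4 genes were called in Abx Saline against H2O Saline, 0 in GF Morphine against GF Saline and 9 in the Abx interaction.

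Leaving out 1 library gave 3597 to 5603 genes in GF Saline against H2O Saline, 4 to 31 in Abx Saline against H2O Saline, 2866 to 4862 in GF Saline against Abx Saline, 290 to 1227 in GF Morphine against H2O Morphine, 1025 to 1563 in Abx Morphine against H2O Morphine, 3304 to 4251 in GF Morphine against Abx Morphine, 0 to 2 in H2O Morphine against H2O Saline, 277 to 841 in Abx Morphine against Abx Saline, 0 to 2 in GF Morphine against GF Saline, 3 to 25 in the Abx interaction, 0 to 95 in the GF interaction and 6331 to 7554 over the 6 groups. The lowest counts came without GF Saline replicate 6, H2O Saline replicate 5, GF Saline replicate 3, H2O Morphine replicate 3, Abx Morphine replicate 1 and H2O Morphine replicate 2, among others. Depth limits Ntf3 and, with 4 to 196 reads per library, Bdnf.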
